A study of Mus musculus with 9 samples.

Results

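The genes described here are 10 members of the tumor necrosis factor (TNF) ligand and receptor family. They are Tnfrsf12a (the receptor for TWEAK, also called Fn14) with its ligand Tnfsf12 (TWEAK), the TNF receptors Tnfrsf1a and Tnfrsf1b with their ligand Tnf, the death receptors Tnfrsf10b and Fas, the nervous system receptors Tnfrsf19 (TROY) and Tnfrsf21 (DR6), and the soluble decoy receptor Tnfrsf11b (osteoprotegerin). They were chosen from the family with their change after nerve injury in view, so that change is given below as a description, with its error. Calls of members by limma are stated below but are not read as a test. They make up 10 of the 27671 gene names on the array. Each of their probes was taken, by current symbol, older symbol or RefSeq accession, which gave 17 of 41174 probes.

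Receptors of this family sit in the plasma membrane and bind trimeric ligands of the TNF type. Most recruit TRAF adaptor proteins, through which they engage the NF-κB and JNK pathways. A subset has a cytoplasmic death domain (here Tnfrsf1a, Tnfrsf10b, Fas and Tnfrsf21), through which some can also engage caspase-8 or RIPK1. In the nervous system TNF acts on neurons, glia and macrophages, Tnfrsf19 can take part in the receptor complex for myelin inhibitors, and Tnfrsf21 has been tied to axon pruning.

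The samples were total RNA of L3/L4 dorsal root ganglia (DRG), which hold the cell bodies of the sensory neurons whose axons run in the sciatic nerve. There were 4 uninjured (control) and 5 injured (lesion) samples, the latter taken after transection of the sciatic nerve. All samples of both groups came from adult mice labelled cre.neg and jun.wt, that is, negative for Cre and wild type for jun, and all carry the label of 3 days after transection, as do the study's methods, while 1 sentence of its results gives 24 hr. The labels name no animals. The study's methods took ganglia of the uninjured side as controls for nerve crush in its tissue assays, without naming the arrays, so the groups were compared as unpaired and p-values measure the spread between these samples. Each sample was labelled with Cy5 and hybridized with a Cy3-labelled universal mouse reference RNA, with no dye swap. All values below are log2 of Cy5 over Cy3 unless stated. They compare a probe across arrays, and not 1 probe with another.

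The median Cy5 signal was between 200 and 231 on uninjured and between 156 (injured 5) and 238 on injured arrays, and 70.2% to 78.4% of probes were above background in Cy5. Injured 5 had the lowest share. It also differed most from the nearest array of its group (SD of the difference over tested probes 0.297, beside 0.205 to 0.242 for the other arrays). The number of arrays limits the precision. The arrays lay on 3 slides: 1 with uninjured 1 and injured 1, 2 and 5, another with uninjured 2, 3 and 4, and another with injured 3 and 4. Within-slide differences given below therefore compare 3 injured arrays with uninjured 1 alone. Markers of sensory neurons were present (9 of 10 listed genes tested), and their mean over genes, taken from each gene's uninjured mean, ranged from −0.10 to 0.13 on uninjured and −0.27 to 0.13 on injured arrays. Injured 2 and 4 stood apart: the mean of 8 muscle genes was raised by 1.97 and 3.37 there, against −0.11 to 0.35 on the other injured and −0.05 to 0.09 on the uninjured arrays. The mean of 5 neutrophil genes was raised by 3.16 and 1.81 on the same arrays, against −0.50 to 0.60 on uninjured arrays, and by 0.58 to 0.76 on injured 1, 3 and 5. Red blood cell genes (4 tested) were at 1.42 on injured 2, 0.71 on injured 4 and 1.04 on injured 5, against −0.20 to 0.27 on uninjured arrays. Macrophage genes (9 of 9 tested) ranged from −0.37 to 0.30 on uninjured and from 0.12 to 1.01 on injured arrays. By limma 3 of them were called higher, beside 11.2% of all genes tested: Cd14 by 0.83, Aif1 by 0.90 and Itgam by 0.50. Endothelial and fibroblast genes ranged from −0.43 to 0.34 on uninjured and from −0.03 to 0.64 (injured 5) on injured arrays. Satellite glia and Schwann cell genes ranged from −0.23 to 0.20 and from 0.01 to 0.34. T and B cell genes ranged from −0.09 to 0.17 and from −0.05 to 0.36. The differences of the members are therefore also given without injured 2 and 4, and the part of these cells in the results was not tested. In whole ganglia, fewer cells of a type and less RNA per cell cannot be told apart.

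Promoter windows of RefSeq (build GRCm38.p6, 250 bases before to 50 after the start of a gene) were at hand for 7 of the 10 genes. They were searched on both strands for the AP-1 motif TGANTCA, the related CRE motif TGACGTCA, and an NF-κB motif of 10 letters (GGG, 2 free bases, TTTCC). Of all 32851 windows, 7.81% held the AP-1 motif, 1.79% the CRE motif and 1.63% the NF-κB motif. Among the windows of Tnfrsf12a, Tnfrsf1a, Tnfrsf1b, Tnfrsf19, Tnfrsf21, Fas and Tnf, that of Fas held 1 AP-1 motif, starting 211 bases before the gene's start, and no other match to these letters was found, so no motif overlapped another. The 250 bases before the start are shown for the receptors with the largest differences, Tnfrsf12a (chr17:23677450-23677699, minus strand) and Tnfrsf1b (chr4:145246871-145247120, minus strand), and for Fas (chr19:34290409-34290658, plus strand), each 5′ to 3′ along the gene, with the motif in capitals:
Tnfrsf12a: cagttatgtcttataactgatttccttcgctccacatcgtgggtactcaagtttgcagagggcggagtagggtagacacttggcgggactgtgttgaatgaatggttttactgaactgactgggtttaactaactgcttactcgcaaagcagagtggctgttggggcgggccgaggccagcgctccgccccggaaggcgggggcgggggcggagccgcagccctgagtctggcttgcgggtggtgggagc
Tnfrsf1b: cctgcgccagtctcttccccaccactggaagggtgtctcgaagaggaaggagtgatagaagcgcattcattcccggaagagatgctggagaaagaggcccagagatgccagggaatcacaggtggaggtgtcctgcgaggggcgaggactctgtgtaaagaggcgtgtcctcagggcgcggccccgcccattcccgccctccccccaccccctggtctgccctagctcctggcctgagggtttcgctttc
Fas: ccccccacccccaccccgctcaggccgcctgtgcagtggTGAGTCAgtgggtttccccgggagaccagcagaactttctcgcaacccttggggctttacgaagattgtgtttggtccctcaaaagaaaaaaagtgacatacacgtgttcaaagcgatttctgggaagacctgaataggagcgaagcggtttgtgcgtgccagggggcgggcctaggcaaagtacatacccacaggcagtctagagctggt
These are reference sequences. The arrays measured no binding to them.

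A probe was tested where Cy5 was well above background on at least 4 arrays, which 13 of the 17 probes passed, for 9 of the 10 genes. The injured mean was above the uninjured mean for 11 of the 13. At an adjusted p under 0.05, limma called 4 of the 13, all higher after injury, beside 23.5% of all 31186 probes tested in either direction and 10.5% higher. The groups did not overlap for 2 of the 13, beside 22.5% of all probes tested. Since the genes were chosen with this contrast in view, nothing is read from these counts. The members fell into 3 sets by size: Tnfrsf12a and 1 probe of Tnfrsf1b, more than doubled, Tnfrsf1a and 1 probe of Tnfrsf10b, raised by about 0.5, and the remaining probes, within 0.24 of their uninjured mean.

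**Figure D1:**
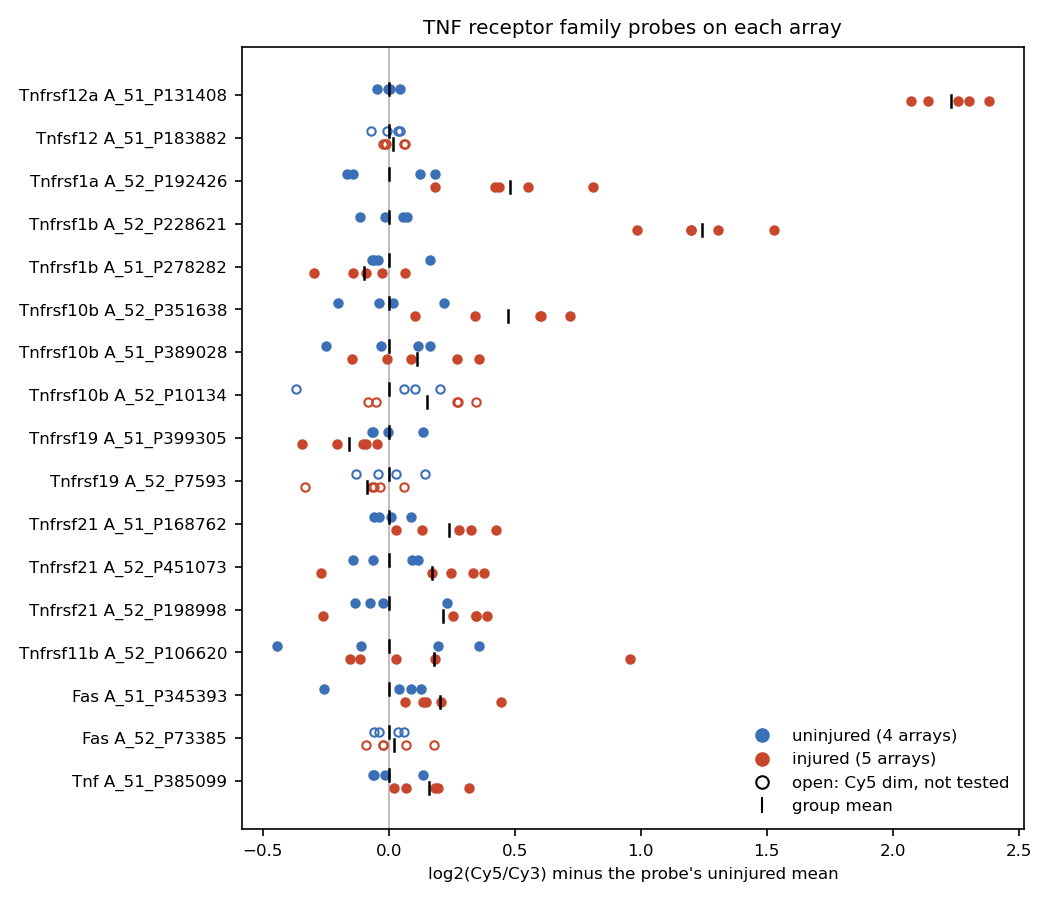
Each row is a probe and each point an array (4 uninjured, 5 injured), as log2(Cy5/Cy3) minus that probe's uninjured mean, with black bars at the group means and open points for the 4 probes too dim to test. The 5 injured arrays lie at 2.07 to 2.38 for Tnfrsf12a and at 0.98 to 1.53 for Tnfrsf1b probe A_52_P228621, clear of the uninjured arrays, and the groups overlap in the other rows.

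Tnfrsf12a is a small receptor without a death domain, known to be induced by growth factors and tissue injury. Its probe A_51_P131408 (NM_013749, chr17:21855654-21855713 on build mm7, minus strand) had log2 ratios of −3.38, −3.34, −3.43 and −3.39 on the uninjured arrays and of −1.12, −1.0, −1.24, −1.08 and −1.31 on the injured arrays. The groups were separated by a wide gap. Their means were −3.38 ± 0.04 (SD, n = 4) uninjured and −1.15 ± 0.12 (SD, n = 5) injured, a difference of 2.23 (SE 0.07) or 4.69-fold. In Cy5 alone, background-subtracted, the spot read 2407 to 2800 on uninjured and 6977 to 14945 on injured arrays, while the Cy3 reference signal had medians of 14582 and 14233. The difference was 2.23 within the slide that held both groups and 2.16 without injured 2 and 4. On injured 1, where the macrophage mean was 0.12, the neutrophil mean 0.58 and the muscle mean −0.03, Tnfrsf12a was 2.26 above its uninjured mean. On injured 4, where the muscle mean was highest, it was 2.30 above. The part of these or other cells in its rise was not tested. By this difference Tnfrsf12a ranked 41 of the 20900 genes tested, counting from the highest.

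Its ligand Tnfsf12 could not be followed. Probe A_51_P183882 (NM_011614, chr11:69767942-69768001) was not well above background in Cy5 or Cy3 on any of the 9 arrays, with a background-subtracted Cy5 signal of −3.3 to 7.9 on uninjured and −1.4 to 10.1 on injured arrays. No level or change can be given for TWEAK in these ganglia.

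**Figure D2:**
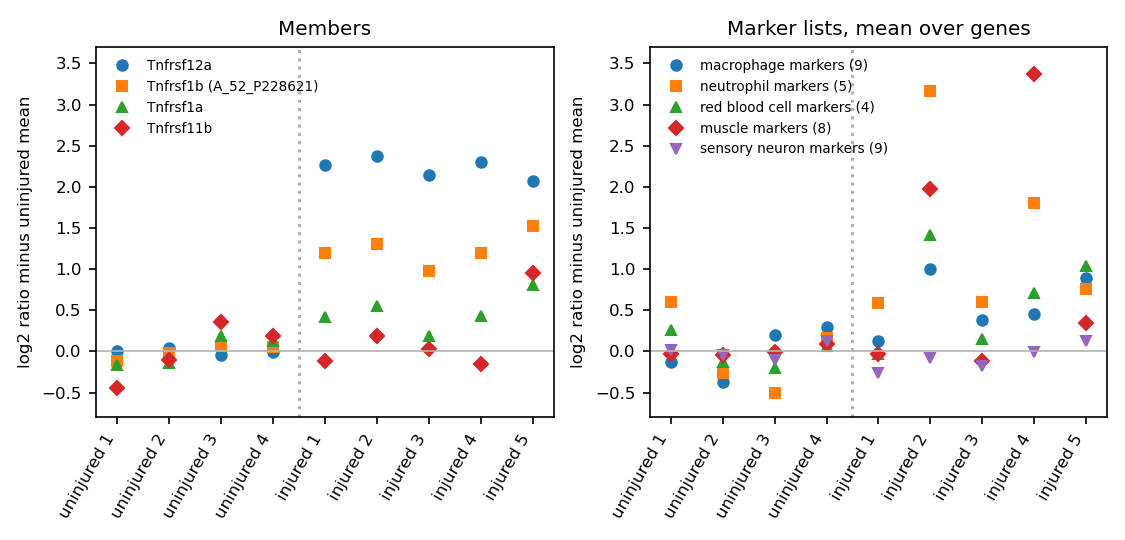
The left panel shows 4 members on each array and the right panel the mean over the tested genes of 5 marker lists (number of genes in brackets), both as log2 ratio minus the uninjured mean, with a dotted line between uninjured and injured arrays. Tnfrsf12a stays between 2.07 and 2.38 on injured arrays, where the muscle mean ranges from −0.11 to 3.37. Tnfrsf1b, Tnfrsf1a and Tnfrsf11b are highest on injured 5. The part of the marked cells in the members' values was not tested.

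Tnfrsf1b (TNFR2), the TNF receptor without a death domain, was measured by 2 probes that disagreed. Probe A_52_P228621 (chr4:144626830-144626889, minus strand), printed on 10 spots of each array, had log2 ratios of −2.26, −2.16, −2.08 and −2.09 on uninjured and of −0.95, −0.84, −1.17, −0.95 and −0.62 on injured arrays. The groups were far apart. The mean rose from −2.15 ± 0.08 to −0.91 ± 0.20, by 1.24 (SE 0.10, 2.37-fold), and the difference was 1.46 within the slide of both groups and 1.24 without injured 2 and 4. The SD over the repeated spots of an array was 0.034 to 0.070, small beside the range of arrays within a group. Probe A_51_P278282 (1 spot, whose position of chr4:144635392-144635965 spans more than the length of the other probes) had values of −0.12, −0.12, −0.10 and 0.11 on uninjured and of −0.36, −0.09, −0.15, −0.20 and 0.00 on injured arrays. It showed no such rise: its difference was −0.10 (SE 0.08), or −0.11 without injured 2 and 4, and the groups overlapped. Its background-subtracted Cy5 signal had medians of 190 on uninjured and 116 on injured arrays. The Cy3 reference signal of this spot also differed, with medians of 115 and 78. In Cy5 alone its difference was −0.44. The cause of the lower Cy3 signal was not tested. Both probes carry the accession NM_011610, both were above background on all arrays, and which part of the transcript each reads was not determined, as no annotation of build mm7 was used here.

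Tnfrsf1a (TNFR1), the death domain receptor for TNF, had values of −1.57, −1.55, −1.22 and −1.28 on uninjured and of −0.99, −0.85, −1.22, −0.97 and −0.59 on injured arrays by probe A_52_P192426 (10 spots, chr6:125388661-125388720, plus strand). Injured 3 reached no higher than uninjured 3, and the other injured arrays were above all uninjured arrays. The mean went from −1.41 ± 0.18 to −0.93 ± 0.23, a difference of 0.48 (SE 0.12, 1.39-fold). Spot SDs of 0.014 to 0.031 were a small part of that spread. Within the slide of both groups the difference was 0.76, since uninjured 1 was the lowest array and injured 5 the highest, and without injured 2 and 4 it was 0.47. Without uninjured 1 it was 0.42, and limma's call ended in each of these fits. Without injured 5 the difference was 0.40.

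Their ligand Tnf, made mainly by macrophages and microglia, was dim in Cy5 (38.3 to 57.5 on uninjured and 42.3 to 70.6 on injured arrays, above background on all). Its probe A_51_P385099 (10 spots, chr17:33296067-33296126) had log2 ratios of −1.80, −1.61, −1.75 and −1.80 on uninjured and of −1.72, −1.67, −1.56, −1.54 and −1.42 on injured arrays. Of the 5 injured arrays, 3 lay above all uninjured arrays. The difference was 0.16 (SE 0.07), 0.20 within the slide of both groups and 0.17 without injured 2 and 4, and the SD over the 10 spots of an array was 0.100 to 0.182. It came to 0.34 with spots of non-uniform local background kept and to 0.32 by Agilent's ratio.

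Tnfrsf10b (DR5), a TRAIL receptor with a death domain, had 3 probes with differing results. Probe A_52_P351638 (chr14:64422215-64422274) had values of −1.23, −1.02, −1.28 and −1.44 on uninjured and of −0.90, −1.14, −0.64, −0.64 and −0.52 on injured arrays. Only injured 2 fell among the uninjured arrays. The difference was 0.47 (SE 0.13), 0.37 within the slide of both groups, where limma's call ended, and 0.55 without injured 2 and 4. It was also not called with median centring or by Agilent's ratio. Leaving out uninjured 1, 3 or 4 or injured 4 gave 0.41 to 0.48 and ended limma's call. Probe A_51_P389028 (chr14:64420668-64420725) differed by 0.11 (SE 0.12), with uninjured arrays between −1.28 and −0.86 and injured arrays between −1.17 and −0.67. Without injured 2 and 4 it was 0.21, within the slide of both groups 0.29 and in Cy5 alone −0.08. Probe A_52_P10134 was above background in Cy5 on 1 uninjured and 2 injured arrays and was not tested. Its ligand Tnfsf10 (TRAIL) differed by 0.20 (SE 0.12, limma adjusted p = 0.291).

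Fas, the receptor for Fas ligand, had values of −1.24, −1.59, −1.29 and −1.2 on uninjured and of −1.26, −1.18, −1.19, −1.12 and −0.88 on injured arrays by probe A_51_P345393 (10 spots, chr19:34028644-34028703). Uninjured 2 was low and injured 5 high, and the groups overlapped. The difference was 0.20 (SE 0.10). It was 0.13 within the slide of both groups, 0.22 without injured 2 and 4 and 0.14 without injured 5. The other probe, A_52_P73385, was above background in Cy5 on 1 uninjured and 2 injured arrays and was not tested. Fasl, the ligand, differed by 0.01 (SE 0.06, limma adjusted p = 0.910).

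Tnfrsf21 (DR6) read far above the reference RNA by its brightest probe, and its 3 probes gave small positive differences. Probe A_51_P168762 (chr17:41207206-41207263) had values of 3.95, 3.80, 3.87 and 3.82 on uninjured and of 4.14, 4.29, 3.99, 4.18 and 3.89 on injured arrays, a difference of 0.24 (SE 0.08). Injured 5 lay below uninjured 1 and the other injured arrays above all uninjured ones. Probe A_52_P451073 (chr17:41207076-41207135) differed by 0.17 (SE 0.12) and probe A_52_P198998 (chr17:41208091-41208150) by 0.22 (SE 0.13), with overlapping groups. The 1 low injured array was not the same by each probe: injured 5 was lowest at 3.41 by A_52_P451073, and injured 3 at 0.24 by A_52_P198998. With all arrays, limma called none of the 3 probes. Leaving out the lowest injured array of a probe can only raise its difference, so the calls limma made in those fits are not read as a result. Without injured 5 the difference was 0.29 by A_51_P168762 and 0.28 by A_52_P451073. Without injured 3 it was 0.34 by A_52_P198998. In the same order of probes the differences fell to 0.15, 0.08 and 0.11 without injured 2 and 4, and were 0.16, 0.06 and 0.39 within the slide of both groups.

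Tnfrsf19 (TROY), which can stand in for the p75 receptor in the Nogo receptor complex, was lower on injured arrays by a small amount. Probe A_51_P399305 (chr14:55831784-55831843) had values of −0.04, −0.24, −0.24 and −0.18 on uninjured and of −0.52, −0.26, −0.28, −0.22 and −0.38 on injured arrays. The groups overlapped through injured 4, and the difference was −0.16 (SE 0.08), or −0.35 within the slide of both groups and −0.22 without injured 2 and 4. The second probe, A_52_P7593, was not above background in Cy5 on any array.

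Tnfrsf11b (osteoprotegerin), a secreted receptor that binds RANKL and TRAIL, varied more between arrays of a group than between groups. Its values were −1.65, −1.32, −0.85 and −1.02 on uninjured and −1.33, −1.03, −1.18, −1.36 and −0.25 on injured arrays by probe A_52_P106620 (chr15:54311325-54311384). Only injured 5 left the uninjured range. The difference was 0.18 (SE 0.23), −0.01 without injured 5, 0.29 without injured 2 and 4, and 0.78 within the slide that held injured 5.

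**Figure D3:**
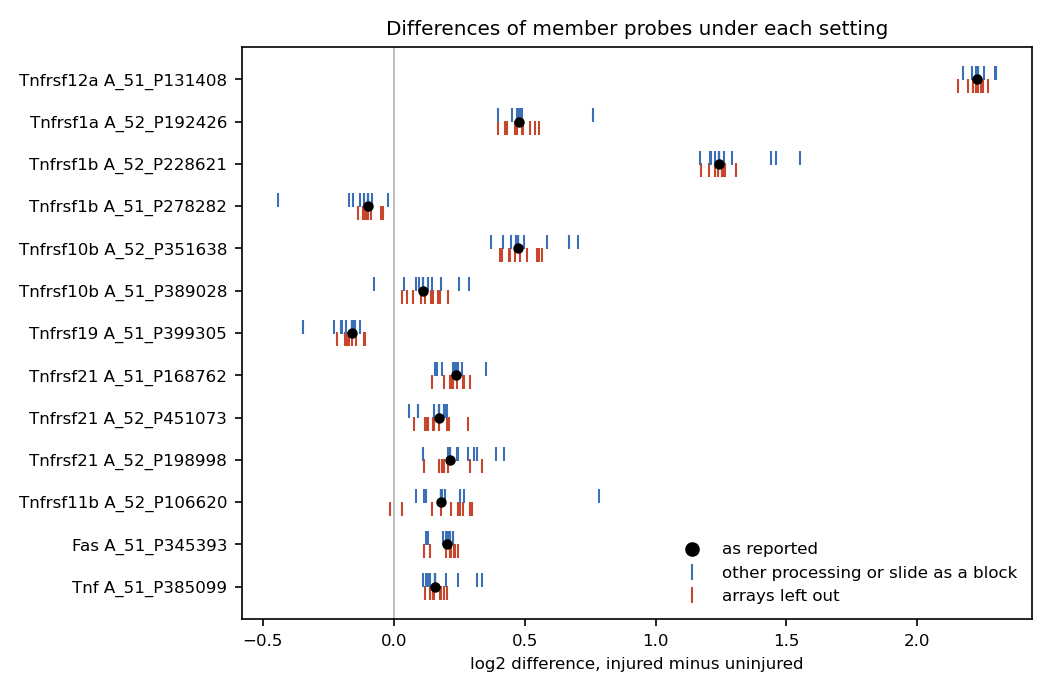
For each of the 13 tested probes, the log2 difference (injured minus uninjured) is shown as reported (black point), under other processing or with slide as a block (blue marks) and with arrays left out (red marks). Tnfrsf12a stays between 2.16 and 2.30 and Tnfrsf1b probe A_52_P228621 between 1.17 and 1.55, while Tnfrsf11b runs from −0.01 to 0.78.

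The genes whose pattern over the 9 arrays was nearest to that of Tnfrsf12a were found among 16464 genes with a current symbol, by the root mean square difference of log2 ratios after each gene's uninjured mean was taken off. They were Rnf183 (a RING-type ubiquitin ligase, root mean square difference of 0.116), Camk1 (a calcium/calmodulin-dependent kinase, 0.131), Nfil3 (a bZIP transcription factor, 0.148), Fgf3 (a fibroblast growth factor, 0.153) and Prss56 (a serine protease, 0.162). Their differences between injured and uninjured arrays were 2.12, 2.15, 2.12, 2.17 and 2.31. The measure chose genes with a difference of this size, so they get no test.

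**Figure D4:**
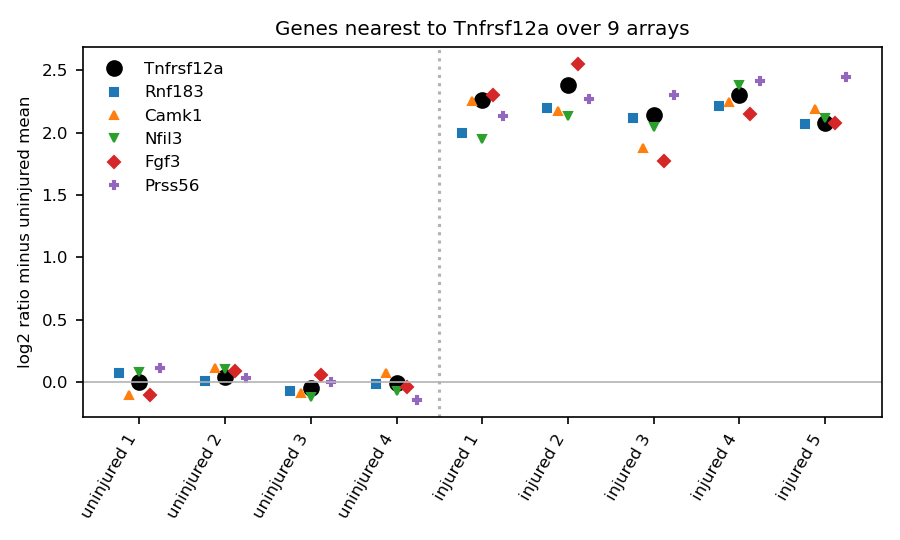
Each symbol is a gene, drawn over the 9 arrays as log2 ratio minus its uninjured mean. The 5 genes nearest to Tnfrsf12a (black) lie within 0.15 of 0 on uninjured arrays and between 1.78 and 2.55 on injured arrays.

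The other receptors of the superfamily are described next. The members were taken from this family with their change in view. What is left therefore cannot show whether the rise of Tnfrsf12a and of Tnfrsf1b probe A_52_P228621 was shared. Of 20 other receptors, 20 were tested, 0 rose and 2 fell by limma (adjusted p under 0.05 over all probes), where 24.9% of the 20900 genes tested by their brightest probe were called, 11.2% higher and 13.7% lower. At an unadjusted p under 0.05, 2 were higher and 3 lower. Their median difference was 0.04, beside 0.002 for all genes tested, and the highest was 0.30. Tnfrsf11a (RANK, the receptor for RANKL) fell. Its values were 2.0, 1.70, 1.89 and 1.98 on uninjured and 1.32, 1.29, 1.62, 0.89 and 0.78 on injured arrays, without overlap, a difference of −0.71 (SE 0.16, limma adjusted p = 0.00729), and its second probe fell by 0.36 (limma adjusted p = 0.00226). Tnfrsf13c, the BAFF receptor of B cells, fell by 0.40 (limma adjusted p = 0.0407), with a call that ended when any of uninjured 1, 3 or 4 or injured 1, 3 or 4 was left out (−0.30 to −0.43). Ltbr, the lymphotoxin β receptor, differed by 0.30 (limma adjusted p = 0.0766), and Ngfr, the p75 neurotrophin receptor that pairs with the same partners as Tnfrsf19, by −0.01 (SE 0.11, limma adjusted p = 0.964).

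Of 16 other ligands, 11 were bright enough to test, 0 rose and 1 fell by limma, with 0 higher and 2 lower at an unadjusted p under 0.05 and a median difference of 0.01. Tnfsf13b (BAFF, a B cell survival factor) fell by 0.38 (limma adjusted p = 0.0467), and its second probe by 0.24 (limma adjusted p = 0.00840). The call by the first probe ended on leaving out any array but uninjured 2 and injured 5 (−0.32 to −0.43), and without injured 2 and 4 together (−0.30). The lymphotoxins, which bind Tnfrsf1a, Tnfrsf1b and Ltbr, gave differences of −0.10 (Lta, limma adjusted p = 0.399) and 0.31 (Ltb, limma adjusted p = 0.263). Tnfsf11 (RANKL), the ligand shared by Tnfrsf11a and Tnfrsf11b, was not above background in Cy5 on any array by either of its 2 probes, nor were Tnfsf4, Tnfsf8, Tnfsf18 and Cd40lg.

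Downstream of the receptors, 27 of 27 signalling genes were tested. By limma 4 rose and 4 fell, 29.6% of the list beside 24.9% of all genes, with a median difference of 0.06. Those that rose were Traf4, an adaptor of the TRAF family (0.63, SE 0.07, adjusted p = 0.000132), and the kinases Ripk1 (0.36, SE 0.06, adjusted p = 0.00189) and Ripk3 (0.65, SE 0.15, adjusted p = 0.0102) with their effector Mlkl (0.20, SE 0.06, adjusted p = 0.0374), which together can carry out necroptosis. Traf4 had values of −2.43, −2.41, −2.29 and −2.26 on uninjured and of −1.83, −1.58, −1.81, −1.71 and −1.66 on injured arrays, with no overlap, and its second probe rose by 0.27. The other 2 probes of Ripk1 differed by 0.15 and 0.07 and were not called. Mlkl lost its call on leaving out any array but uninjured 4 and injured 1 (0.18 to 0.20), and Ripk3 and Mlkl lost theirs without injured 2 and 4 together (0.61 and 0.19).

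Those that fell were Cyld, a deubiquitinase that limits NF-κB signalling (−0.63, SE 0.07, limma adjusted p = 0.000155), Map3k5, the kinase ASK1 (−0.75, SE 0.13, adjusted p = 0.00183), Ikbkg, the regulatory subunit of the IκB kinase (−0.37, SE 0.07, adjusted p = 0.00447), and Birc2, the ubiquitin ligase cIAP1 (−0.32, SE 0.08, adjusted p = 0.0141). For Cyld the arrays read 0.61, 0.51, 0.62 and 0.48 uninjured and −0.02, −0.03, 0.05, −0.11 and −0.26 injured, without overlap, and its other probes differed by −0.38 (called) and −0.26. The other probe of Birc2 differed by −0.04 and the other 3 of Ikbkg by −0.26 (called), −0.10 and 0.02. Birc2 lost its call without injured 2 and 4 together (−0.30). Among genes of this list that act close to Tnfrsf12a and Tnfrsf1b, Birc2 fell, as given above, and Traf1, Traf2 and Map3k14 did not pass the test. Traf1 differed by 0.19 (limma adjusted p = 0.380), Traf2 by 0.14 (limma adjusted p = 0.195), and Map3k14, the kinase NIK of the noncanonical NF-κB pathway, by 0.07 (limma adjusted p = 0.547).

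Of 15 NF-κB subunits, inhibitors and response genes, 14 were tested. By limma 5 rose and 0 fell (8 higher and 1 lower at an unadjusted p under 0.05), with a median difference of 0.21. These were 35.7% of the list, beside 24.9% of all genes tested in either direction and 11.2% higher. The 5 comprised 4 of the 4 tested subunits, each by its brightest probe, and Bcl3, a nuclear protein of the IκB family that binds p50 and p52. The subunit Rel was not tested. The list was chosen with earlier results of these data known, so nothing is read from these shares. Rela (p65) rose by 0.63 (SE 0.09, limma adjusted p = 0.000856), from −0.63, −0.52, −0.67 and −0.53 on uninjured to −0.09, −0.01, −0.10, 0.05 and 0.36 on injured arrays, and by 0.68 by its second probe. Bcl3 rose by 0.68 (SE 0.13, limma adjusted p = 0.00359), Nfkb2 by 0.35 (adjusted p = 0.0196), Nfkb1 by 0.34 (adjusted p = 0.0159) and Relb by 0.23 (adjusted p = 0.0134). For Nfkb1 this was the brightest tested of its 4 probes, and the values of the others are not given here. The groups did not overlap for any of these 5 genes, beside 22.5% of all probes tested without overlap. Nothing is read from that, as limma's calls had picked these genes. The remaining genes of the list gave uneven values. None of the inhibitors Nfkbia, Nfkbib and Nfkbie was called, and the lowest difference of the list, −0.18, was among them. Of the response genes, Tnfaip3, Tnfaip2, Birc3 and Sod2 lay between −0.10 and 0.06. Vcam1, an endothelial adhesion molecule, differed by 0.42 (limma adjusted p = 0.116). Icam1, an adhesion molecule of endothelium and leukocytes, differed by 0.99 (SE 0.36, limma adjusted p = 0.0684) by its brightest probe and by 0.50 (limma adjusted p = 0.00824) by the other. Nfkb1 lost its call without uninjured 1 (0.28), Nfkb2 without uninjured 1 (0.33) or uninjured 3 (0.34), and Nfkb2 and Relb without injured 2 and 4 together (0.36 and 0.23). With median centring 2 of the 5 were called, Rela and Bcl3, and with slide as a fixed block Bcl3 alone.

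Of 6 partners of Tnfrsf19 and Tnfrsf21, all tested, 0 rose (1 higher at an unadjusted p under 0.05) and 2 fell by limma. Lingo1, the co-receptor that joins Tnfrsf19 and the Nogo receptor, fell by 0.74 (SE 0.10, limma adjusted p = 0.000372). Omg, an oligodendrocyte myelin glycoprotein that binds the Nogo receptor, fell by 0.85 (SE 0.07, limma adjusted p = 9.21e-06), from 4.34, 4.32, 4.48 and 4.54 to 3.59, 3.58, 3.49, 3.64 and 3.54, without overlap. The Nogo receptor Rtn4r differed by −0.14 (limma adjusted p = 0.182). App, whose fragment has been described as a ligand of Tnfrsf21, differed by 0.03 (limma adjusted p = 0.891) by its brightest probe over both channels, by −0.51 (limma adjusted p = 0.00207) by probe A_51_P318104, and by 0.10 and −0.01 by its other probes.

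**Figure D5:**
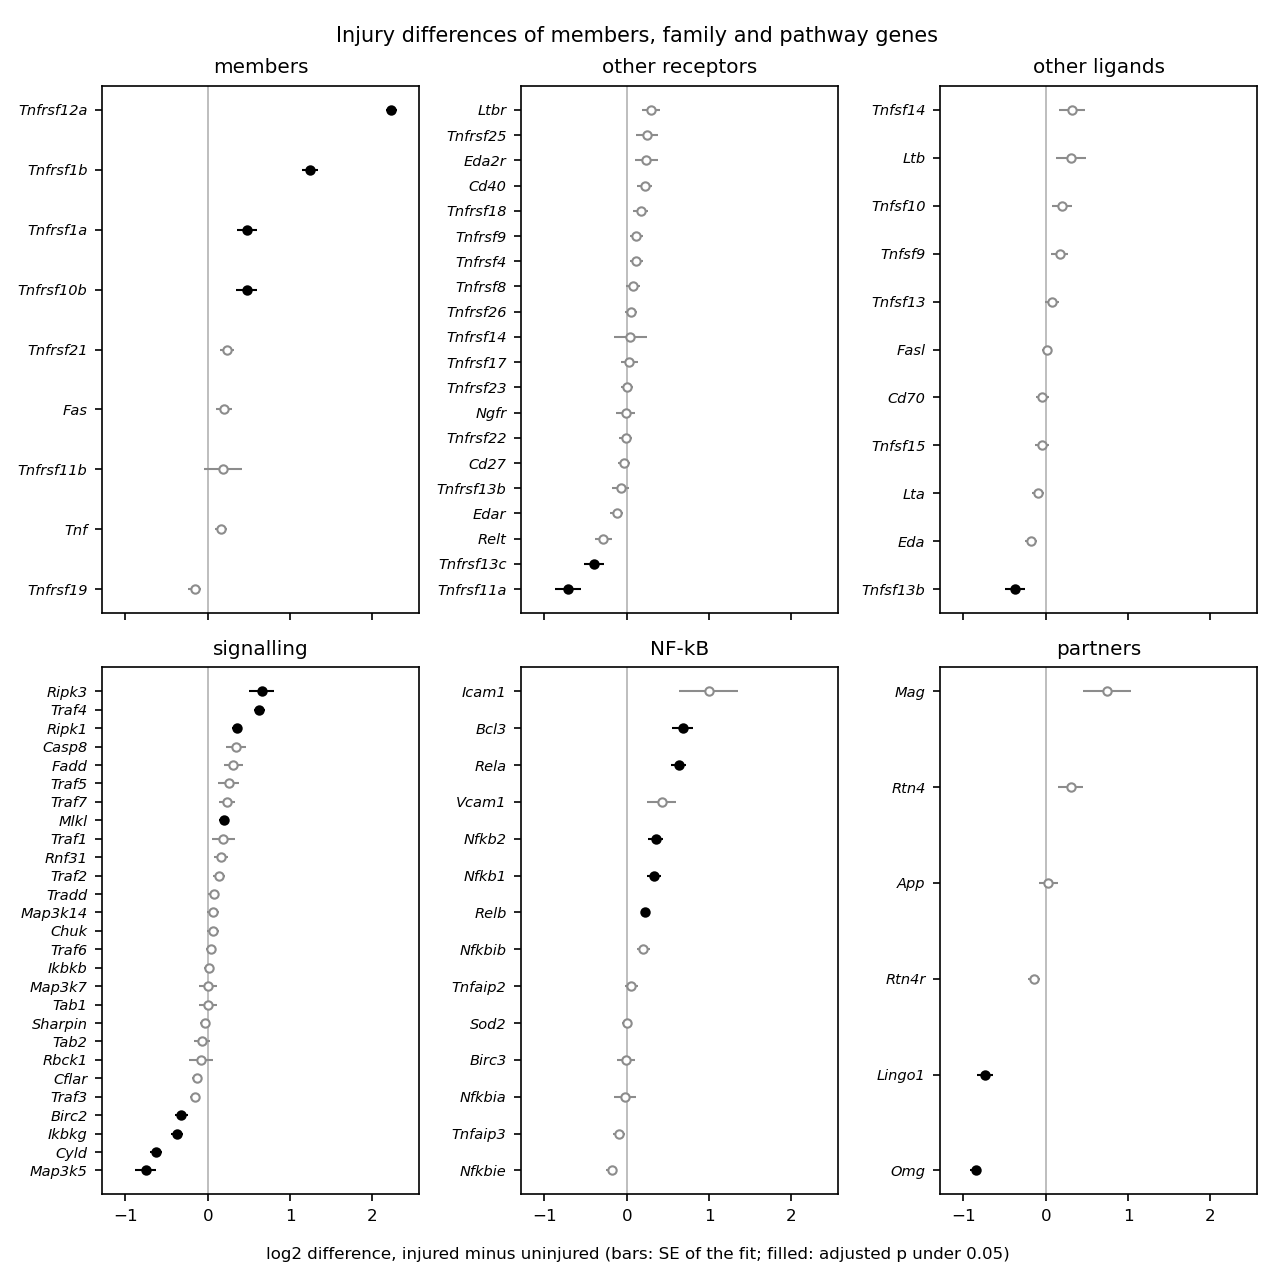
Each point is a gene by its brightest tested probe, with its log2 difference (injured minus uninjured) and the SE of the limma fit as a bar, filled where the adjusted p was under 0.05. Tnfrsf12a and Tnfrsf1b (probe A_52_P228621) lie at 2.23 and 1.24 among the members, and the other receptors and ligands run from −0.71 to 0.32. The members were taken from the family with this difference in view.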

How the data were processed

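DRG RNA of 9 samples was measured on 2-colour Agilent arrays. The deposited scanner intensities are mean signals and median local backgrounds of each spot. The log10 ratios beside them were computed, per the file headers, by Feature Extraction 10.5.1.1 after background subtraction and dye normalization. The authors' own values are log2 ratios (limma is the tool in the labels) and had a slope of 1.00 to 1.01 with those used here.

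In R 4.3.3 with limma 3.58.1, spots of non-uniform local background or marked as outliers were left out, followed by normexp (offset 50), loess within arrays and the mean of repeated spots. On injured 2 the raised local background of such spots otherwise drew the normexp mean to −358. The 31186 probes whose Cy5 was well above background on 4 or more arrays entered 1 limma fit with Benjamini-Hochberg adjustment over all of them, called at 0.05. The brightest of these probes stood for a gene in the lists. Probe names came through RefSeq by accession (23072), symbol (6582) or older name (3066), and 8454 kept the file's name. Coordinates are those of the files, on build mm7.

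The members and lists were chosen with earlier results of these data known. Named are all members, called list genes, binding partners of members, the 5 genes nearest to Tnfrsf12a and, chosen after their values were seen, Tnfaip2, Tnfaip3, Vcam1, Icam1, Sod2, Nfkbia, Nfkbib and Nfkbie. The alternatives tried included keeping outlier spots and leaving out injured 2 and 4, both chosen after seeing the data. The fit was tested on simulated data.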

Additional observations from a re-analysis of the deposited data

Results flagged for a closer look

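The values below stood apart from the rest of their group: the gap from the highest or lowest array to the nearest was a larger part of the group's range than chance gives in about 1 in 20 groups. Of 70 groups examined (the member probes and the called genes of the lists, uninjured and injured arrays apart), 4 did so. By Tnfrsf1b probe A_51_P278282, uninjured 4 was at 0.11, against −0.10 for the nearest uninjured array. By Tnfrsf21 probe A_52_P198998, injured 3 was at 0.24, against 0.76 for the nearest injured array. Tnfrsf13c was at −0.051 on uninjured 4, against −0.39 for the nearest. Mlkl was at −2.44 on uninjured 4, against −2.60 for the nearest. Uninjured 4 was the array concerned in 3 of the 4.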

How the results depend on the processing

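No paired analysis was possible because samples are tied neither to animals nor to replicate numbers in the labels. Over 23 alternatives, Tnfrsf12a differed by 2.16 to 2.30 and Tnfrsf1b probe A_52_P228621 by 1.17 to 1.55. Tnfrsf1a differed by 0.40 to 0.76 and Tnfrsf10b probe A_52_P351638 by 0.37 to 0.70. Tnfrsf1b probe A_51_P278282 was at −0.44 in Cy5 alone. With slide as a fixed block, which rests on uninjured 1, the counts of calls were 1513 for all probes (7339 as reported), 2 for member probes (4), 0 for the other receptors (2), 0 for the ligands (1), 3 for the signalling genes (8), 1 for the NF-κB genes (5) and 1 for the partners (2). With slide as a random block (correlation −0.20) they were 6 for the receptors, 2 for the ligands and 8 for the NF-κB genes. With median centring they were 3516 for all probes, 0 for the ligands, 4 for the signalling genes and 2 for the NF-κB genes. Without injured 2 and 4 they were 4032, 0, 5 and 3 in the same order. The member probes counted 7 in Cy5 alone, the receptors 1 and the ligands 0 with spots of non-uniform background kept, the ligands 0 without a filter, and the partners 1 by Agilent's ratio. Leaving out each array in turn gave 5371 to 7480 for all probes, 2 to 6 for member probes, 1 to 3 for receptors, 0 to 1 for ligands, 7 to 8 for signalling genes, 3 to 6 for NF-κB genes and 2 to 4 for partners. The causes of these shifts were not tested.

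Differences near 0 changed sign. Among members, Tnfrsf10b probe A_51_P389028 went from 0.11 to −0.08 in Cy5 alone and Tnfrsf11b to −0.01 without injured 5. Fasl was at −0.029 with those spots kept, −0.014 with slide fixed and −0.018 without injured 2 and 4. Lta was at 0.0026 with those spots kept. Ngfr was at 0.0042 by Agilent's ratio, 0.010 with slide as a random block and 0.0082 without injured 2 and 4. App was at −0.068 and Map3k14 at −0.019 with median centring. Birc3 was at 0.039 with those spots kept and 0.0088 with slide as a random block. On leaving out each array, Fasl ran from −0.012 to 0.032, Ngfr from −0.11 to 0.042, App from −0.028 to 0.13 and Birc3 from −0.099 to 0.041. Signal over background limits Tnfsf12, Tnfsf11 and the 3 other dim member probes, for which no change could be measured.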
